A study of Mus musculus with 4 samples.

Results

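In all, 40 genes of the contractile apparatus were followed in mouse embryonic stem cell (ESC) lines with and without Dppa2. They were named by gene family, as 13 genes of skeletal muscle (myosin heavy and light chains, troponins and Acta1), 11 of cardiac muscle, 3 shared by striated muscle (Actn2, Ttn and Des), 6 of smooth muscle, 4 tropomyosins and 3 non-muscle myosin heavy chains. All 40 had at least 1 probe on the array, through the RefSeq accession that the array design gives for each probe, and 37 of them passed the filter on dim probes, out of 21639 genes and transcripts that did. Myh1, Myh2 and Myl1 did not pass. The names carry no signal threshold, but the list was proposed with results of these arrays in view. The genotype differences of its members are therefore given as a description, and each adjusted p is that of a fit across all 21639 genes.

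Muscle shortens when heads of myosin, a motor built of heavy and light chains, pull on filaments of actin. In striated muscle these filaments form the sarcomere, where tropomyosin lies along actin and the troponin complex (a calcium-binding subunit C, an inhibitory subunit I and a tropomyosin-binding subunit T) holds it in place until calcium rises. Smooth muscle has no troponin and is switched on through phosphorylation of its regulatory light chain, and cells that are not muscle use the same principle in stress fibres and in the ring that divides the cell. ESCs hold no sarcomeres, but a culture of them can contain cells that have begun to differentiate.

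The data came from 4 ESC lines on 4 Agilent whole-genome arrays, with Cy3 as the only dye and 1 array per line. The 2 wild-type (WT) lines had the genotype 15-1+/+, 15-2+/+, and the 2 deficient (KO) lines the genotype 15-1CT/CT, 15-2-/-. ECAT15-2 is Dppa2 and ECAT15-1 its paralogue Dppa4, so the KO lines lacked Dppa2 and also carried a conditional targeted allele (CT) of Dppa4 on both copies. Each line was derived from a separate blastocyst: WT 1 and KO 1 from mother 1046, WT 2 and KO 2 from mother 875. The strain background was mixed, from 129Sv and C57/BL6 and a Cre or FLPe transgenic stock of unknown background, and the cells were cultured on gelatin for 3 days in medium that held LIF and 15% serum.

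Values are log2 of the scanner software's processed signal after each array was scaled to its 75th percentile. Levels were compared between lines for the same probe and never between genes, because probes differ in brightness. On each array between 28151 and 28931 of 41174 gene probes were well above background and no spot was saturated. Dppa2 read 12.10 and 12.04 in WT 1 and WT 2 and 7.05 and 7.11 in KO 1 and KO 2, so its level followed the labels (31.8-fold lower, limma adjusted p = 0.00863, or 0.0847 with the mother as a block). Whether its probe lies inside the deletion was not given. Dppa4 read 13.38 and 13.55 in the WT lines and 13.95 and 14.05 in the KO lines. ESC markers were present in every line: all 10 tested markers of the 12 listed (such as Pou5f1, Sox2 and Esrrb) were well above background on all 4 arrays. With 2 lines per group, the number of arrays limits the precision of every difference below.

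Myh4 and Myh6 were the members that passed the test, both lower in the KO lines. Of the 37 tested members, 2 were called lower, 0 higher and 35 did not pass (limma, Benjamini-Hochberg adjusted p under 0.05; with no adjustment, 18 lower and 1 higher). Over all genes the same rule called 1.68% lower and 0.176% higher, 1.86% in either direction. With no adjustment, 2753 of all 21639 genes were lower and 2257 higher (limma p under 0.05). The median log2 difference, KO minus WT, was -0.64 over the 37 members and 0.08 over all genes tested. With the mother as a block 0 members and 0 genes in all were called. That fit leaves 1 residual degree of freedom per gene, and Dppa2 itself did not pass in it (limma adjusted p = 0.0847). Its 0 calls therefore cannot decide whether a gene differed. Leaving out WT 1, WT 2 or KO 2 also left 0 members called, whereas leaving out KO 1 called 8, and the median was -0.37 without WT 1. In RNA from a whole culture, fewer cells of a type and less RNA per cell cannot be told apart.

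In 22 of the 37 members both KO lines lay below both WT lines, an ordering that 25.4% of all genes showed. In 4 members (Mylpf, Tnni3, Des and Myh11) both KO lines lay above both WT lines, against 36.1% of all genes, and in the other 11 the groups overlapped. Differences of at least 2-fold in the same direction in each of the mothers' pairs were counted, with no test. They were lower in 13 members, namely Myh4, Myh8, Tnnt3, Tnni2, Acta1, Myh6, Myh7, Actc1, Myl9, Cnn1, Tagln, Tpm1 and Tpm2, and in 7.07% of all genes. Only Myl2 was at least 2-fold higher in both pairs, as were 1.51% of all genes. Myl2 entered the test through the KO group alone, since its probe was not well above background in WT 2.

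By class, the median log2 difference was -1.47 for the 10 tested skeletal genes, 0.01 for the 11 cardiac genes, -0.24 for the 3 shared striated genes, -1.48 for the 6 smooth muscle genes, -1.39 for the 4 tropomyosins and -0.70 for the 3 non-muscle myosins. These medians describe few genes each, and in every class except the cardiac and shared striated ones most tested members had both KO lines below both WT lines. The skeletal median was -0.87 and -0.71 under normexp background correction with the 75th percentile and with quantiles, and -0.76 with no filter on dim probes. Both normexp settings add an offset of 50 to every signal, which narrows log2 differences between dim values. The smooth muscle median was -2.31 when the probes of a gene were averaged and -0.93 without KO 2. The cardiac median was near 0 and turned sign under 6 settings, to -0.64 with averaged probes, -0.48 without WT 2, -0.34 without KO 2, -0.31 with genes above background on all 4 arrays, -0.16 without WT 1 and -0.07 under normexp with the 75th percentile. That of the shared striated genes turned sign under 3 settings, to 0.09 with averaged probes, 0.06 without WT 1 and 0.17 without KO 2.

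**Figure D1:**
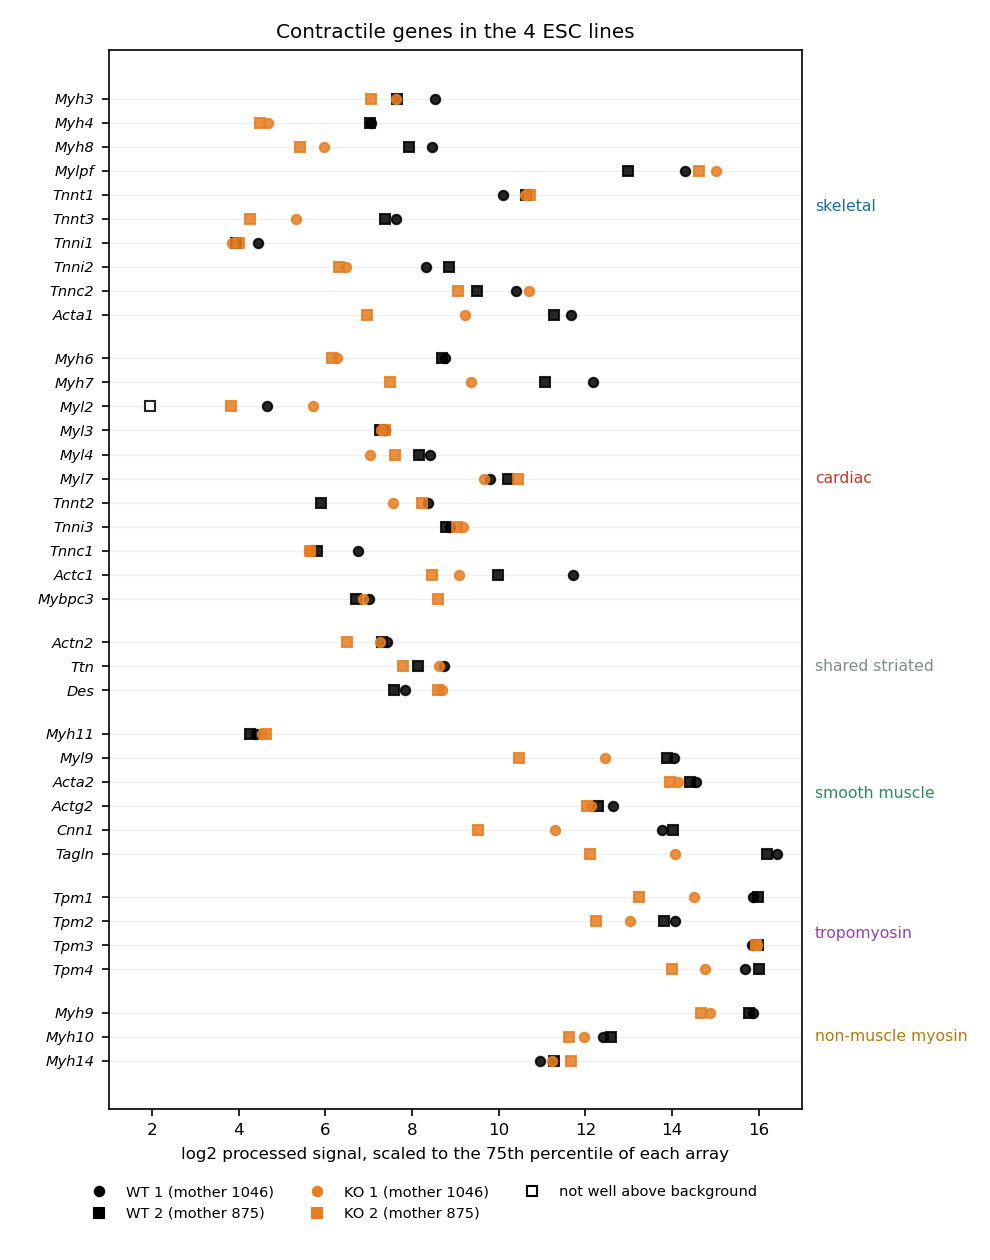
Log2 processed signal (horizontal axis) of the 37 tested contractile genes in the 4 ESC lines, grouped by class; black marks are WT lines, orange marks KO lines, circles mother 1046 and squares mother 875, and an open mark is a value not well above background. The orange marks of Myl9, Cnn1, Tagln, Tpm1, Myh4 and Myh6 lie left of both black marks, while those of Tpm3 coincide with them; positions compare lines within a row, not rows.

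Since several members differed together, their promoters were read as a description. RefSeq windows (assembly GRCm38.p6) of 250 bases before to 50 after a gene start were searched. Windows were found for 35 of the 40 genes, 40 windows in all, and Actg2, Myh11, Tagln, Tnni2 and Tnnt3 had none in the table. The CArG box, the element bound by serum response factor (SRF), has a pattern that is the same on both strands and was present in 6 of the 40 windows (15%), against 535 of all 32851 windows (1.63%). The 6 are shown because they span both outcomes: Myh4, Acta1, Actc1 and Myl9 were among the 13 members at least 2-fold lower in both pairs, whereas Myl7, and Myl3 on the probe that stands for it, had overlapping groups. The other kept probe of Myl3 was lower in both KO lines (log2 difference -2.34). Each line gives the 250 bases before the gene start, 5′ to 3′ on the gene's strand, with the CArG box in capitals.
Myh4, chr11:67237562-67237811, plus strand: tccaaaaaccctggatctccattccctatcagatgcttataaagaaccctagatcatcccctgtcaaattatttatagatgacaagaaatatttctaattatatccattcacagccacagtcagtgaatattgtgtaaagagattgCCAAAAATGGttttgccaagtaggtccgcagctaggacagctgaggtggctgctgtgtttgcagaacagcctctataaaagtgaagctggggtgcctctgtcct
Acta1, chr8:123894776-123895025, minus strand: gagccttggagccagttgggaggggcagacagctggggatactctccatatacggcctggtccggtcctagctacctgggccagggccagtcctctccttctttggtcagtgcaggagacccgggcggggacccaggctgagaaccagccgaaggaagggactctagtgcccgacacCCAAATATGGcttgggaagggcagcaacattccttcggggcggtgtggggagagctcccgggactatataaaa
Myl3, chr9:110763428-110763677, plus strand: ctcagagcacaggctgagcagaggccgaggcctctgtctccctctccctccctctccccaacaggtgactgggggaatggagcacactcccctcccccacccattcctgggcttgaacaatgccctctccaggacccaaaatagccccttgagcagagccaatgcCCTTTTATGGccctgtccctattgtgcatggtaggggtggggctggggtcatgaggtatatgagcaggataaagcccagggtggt
Myl7, chr11:5898783-5899032, minus strand: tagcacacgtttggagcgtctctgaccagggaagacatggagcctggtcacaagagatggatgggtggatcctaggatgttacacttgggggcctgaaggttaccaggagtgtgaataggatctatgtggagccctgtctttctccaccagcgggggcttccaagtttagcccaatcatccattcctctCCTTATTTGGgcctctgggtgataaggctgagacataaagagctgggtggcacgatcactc
Actc1, chr2:114052876-114053125, minus strand: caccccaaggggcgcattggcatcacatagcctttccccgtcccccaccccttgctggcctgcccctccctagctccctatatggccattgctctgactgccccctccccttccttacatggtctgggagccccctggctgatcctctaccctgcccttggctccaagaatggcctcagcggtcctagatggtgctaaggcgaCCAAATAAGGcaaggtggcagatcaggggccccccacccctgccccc
Myl9, chr2:156775214-156775463, plus strand: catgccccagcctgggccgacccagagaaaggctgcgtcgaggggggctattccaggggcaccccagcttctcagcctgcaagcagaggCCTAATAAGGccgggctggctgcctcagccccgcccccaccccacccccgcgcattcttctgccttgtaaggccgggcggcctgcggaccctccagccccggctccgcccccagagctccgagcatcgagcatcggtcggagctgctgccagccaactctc
The boxes start 104 bases before the gene start in Myh4, 73 in Acta1, 85 in Myl3, 61 in Myl7, 47 in Actc1 and 161 in Myl9. A match of letters is a description and not a site of binding. Among the other 9 members at least 2-fold lower in both pairs, Myh8, Myh6, Myh7, Cnn1, Tpm1 and Tpm2 had a window without these letters.

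Other letters were counted in the same windows. CANNTG, the core of the E-box and the same on both strands, occurred in 37 of the 40 windows (92.5%), against 72.3% of all windows. TATAAA, counted on both strands, occurred in 12 (30%), of which 8 belonged to the 12 skeletal windows, against 13.6% of all windows. The number of CpG dinucleotides per 300-base window had a median of 5.5 in skeletal, 3.5 in cardiac and 6 in smooth muscle windows. Over all windows the median was 7. It was 11 in shared striated, 20 in tropomyosin and 18 in non-muscle myosin windows.

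The motor proteins of skeletal muscle were the first group examined. Myh4 encodes the myosin heavy chain of the fastest fibres. Of its 2 probes, 1 did not pass the filter and was well above background in WT 1 alone. That probe read 4.77 and 2.84 in the WT lines and 0.94 and 1.04 in the KO lines. The probe that stands for Myh4 read 7.04 and 7.02 in WT 1 and WT 2 and 4.68 and 4.49 in KO 1 and KO 2. All 4 arrays were well above background, the WT lines nearly coincided and the groups did not overlap. The difference was 5.43-fold (log2 -2.44, SE 0.14, n = 2 per group, limma adjusted p = 0.0221, or 0.0876 with the mother as a block). It was -1.12 under normexp with the 75th percentile and -0.94 with quantiles, and the adjusted p ranged from 0.0203 to 0.196 over 14 alternatives.

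Myh8, the perinatal heavy chain, read 8.47 and 7.94 in the WT lines and 5.96 and 5.42 in the KO lines. Both KO lines were lower by about the same amount within their pair (log2 -2.51 and -2.52), but the gene did not pass (limma adjusted p = 0.0608), and the difference was -1.58 and -1.42 under the normexp settings. Myh3, the embryonic heavy chain, read 8.53 and 7.66 in the WT lines and 7.63 and 7.04 in the KO lines. KO 1 lay just below WT 2, and its log2 difference of -0.76 did not pass (limma adjusted p = 0.339) and was -0.32 without WT 1. Myh1 and Myh2, the heavy chains of other fast fibres, stayed near background: the brightest probe of Myh1 read between 3.52 and 3.84 over the 4 lines, and the 3 probes of Myh2 were not well above background on any array.

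Myh3, Myh2, Myh1, Myh4 and Myh8 lie in this order on chromosome 11 in the RefSeq table, with 0 other protein-coding genes between neighbours. Within this cluster the difference of at least 2-fold was seen in the adjacent genes Myh4 and Myh8, each on the 1 probe that passed the filter. The 5 genes are close relatives, and how far their probes bind each other's transcripts was not tested.

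Of the fast skeletal troponins, the I and T subunits read lower in both KO lines without passing. Tnni2, the fast inhibitory troponin, read 8.31 and 8.85 in the WT lines and 6.48 and 6.31 in the KO lines, and Tnnt3, the fast troponin T, read 7.63 and 7.38 against 5.33 and 4.26. The groups were separated by more than 1.5 in both genes. The differences were 4.55-fold for Tnni2 (limma adjusted p = 0.0542) and 6.51-fold for Tnnt3 (limma adjusted p = 0.0867), so neither passed. The other probe of Tnnt3 gave a log2 difference of -2.49, and Tnnt3 was -1.36 and -1.19 under the normexp settings, where Tnni2 was -1.64 and -1.52 against -2.19.

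Troponin I and T genes lie in pairs on the mouse chromosomes, so neighbours can be compared. Tnni2 and Tnnt3 lie near each other on chromosome 7, with 1 protein-coding gene, Lsp1, between them, and both were lower. Tnnt1, the slow skeletal troponin T, and Tnni3, the cardiac troponin I, are neighbours at another place on chromosome 7. Tnnt1 read 10.11 and 10.64 in the WT lines and 10.61 and 10.73 in the KO lines, and Tnni3 read 8.87 and 8.78 against 9.17 and 9.03, so neither was lower. In the third pair, on chromosome 1 with Lad1 between its members, neither gene differed beyond the spread between lines. Tnni1, the slow skeletal troponin I, was dim, at 4.44 and 3.94 in the WT lines and 3.85 and 4.01 in the KO lines. Tnnt2, the cardiac troponin T, read 8.37 in WT 1 and 5.89 in WT 2 and 7.56 and 8.23 in the KO lines, so WT 2 stood apart from the other lines (limma adjusted p = 0.648).

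**Figure D2:**
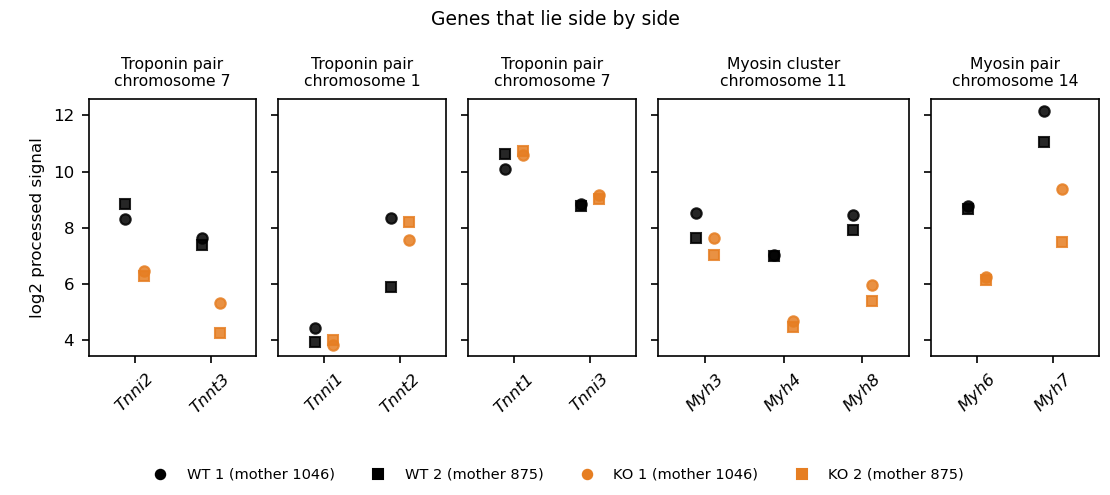
Log2 processed signal (vertical axis) of troponin and myosin heavy chain genes that lie side by side, in the 4 ESC lines; black marks are WT lines, orange marks KO lines, circles mother 1046 and squares mother 875. Both genes of the Tnni2 and Tnnt3 pair and of the Myh6 and Myh7 pair lie lower in both KO lines, while Tnnt1 and Tnni3 do not.

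Acta1 is the actin of skeletal muscle. It read 11.67 and 11.28 in the WT lines, 9.23 in KO 1 and 6.97 in KO 2. The WT lines were close to each other and both KO lines lower, but KO 2 lay 2.26 below KO 1. The difference of 10.4-fold (log2 -3.38, SE 0.85) therefore did not pass (limma adjusted p = 0.152), and it was -2.25 without KO 2. Without KO 1, which left KO 2 as the only KO line, the log2 difference of Acta1 was -4.50.

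Not all skeletal genes were lower. Mylpf, the regulatory light chain of fast fibres, read 14.31 and 12.99 in the WT lines and 15.02 and 14.63 in the KO lines, higher by log2 1.17 without passing (limma adjusted p = 0.279), and by 1.84 or 0.51 without WT 1 or WT 2. Tnnc2, the fast troponin C, read 10.40 in WT 1 and 10.69 in KO 1, both of mother 1046. It read 9.49 in WT 2 and 9.07 in KO 2, both of mother 875. Its genotype groups overlapped, and its difference between mothers did not pass (limma adjusted p = 0.678). Myl1, a light chain of fast fibres, was well above background in WT 1 alone, at 4.05.

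In the cardiac class the heavy chains were lower while most troponins and light chains, read on the probe that stands for each gene, were not. Myh6, the alpha heavy chain of the heart, read 8.77 and 8.69 in the WT lines and 6.26 and 6.15 in the KO lines. Replicate lines lay within 0.11 of each other in both groups. The difference was 5.75-fold (log2 -2.52, SE 0.13, n = 2 per group, limma adjusted p = 0.0199, or 0.0866 with the mother as a block; from 0.0156 to 0.180 over 14 alternatives). It was -1.82 and -1.69 under the normexp settings. The other probe of Myh6 gave -2.42.

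Myh7, the beta heavy chain of the heart and of slow fibres and the direct neighbour of Myh6 on chromosome 14, read 12.17 and 11.07 in the WT lines and 9.37 and 7.49 in the KO lines. Both groups were spread by more than 1 on the log2 scale, in the same direction by mother. The difference of 9.13-fold (log2 -3.19, SE 0.81) was larger than that of Myh6 and did not pass (limma adjusted p = 0.153). Actc1, the cardiac actin, read 11.72 and 9.98 against 9.09 and 8.45, a log2 difference of -2.08 that did not pass (limma adjusted p = 0.207) and was -1.21 without WT 1.

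Among the light chains, Myl4, the atrial essential chain, read 8.42 and 8.17 in the WT lines and 7.03 and 7.61 in the KO lines (limma adjusted p = 0.165). Myl7, the atrial regulatory chain, read 9.79 and 10.21 against 9.65 and 10.44, with overlapping groups. Myl2, its ventricular counterpart, was dim and scattered, at 4.66 and 1.96 in the WT lines and 5.71 and 3.81 in the KO lines, and its log2 difference of 1.45 dropped to 0.16 under normexp with the 75th percentile. Tnnc1, the troponin C of heart and slow fibres, read 6.74 and 5.81 against 5.63 and 5.65. Mybpc3, the cardiac myosin-binding protein C, read 7.0 and 6.71 in the WT lines, 6.86 in KO 1 and 8.59 in KO 2, so only KO 2 was high.

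Genes shared by the sarcomeres of all striated muscle differed by less than 1 on the log2 scale. Actn2, the Z-disc alpha-actinin, read 7.41 and 7.31 in the WT lines and 7.25 and 6.49 in the KO lines, and Ttn, the giant spring protein titin, read 8.74 and 8.14 against 8.61 and 7.79. Des encodes desmin, the muscle intermediate filament protein. It read 7.83 and 7.58 in the WT lines and 8.69 and 8.59 in the KO lines, higher by log2 0.93 (SE 0.15) without passing (limma adjusted p = 0.0938). Of the 8 probes of Ttn only 2 were kept, and they gave -0.24 and 0.42.

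In the smooth muscle class Tagln, Cnn1 and Myl9 read lower in both KO lines without passing. Tagln (transgelin, an actin cross-linker of smooth muscle and of spread cells) read 16.42 and 16.19 in the WT lines, 14.07 in KO 1 and 12.11 in KO 2. Cnn1 (calponin, which binds actin and slows myosin) read 13.78 and 14.03 against 11.31 and 9.53, and Myl9, the regulatory light chain of smooth muscle, read 14.05 and 13.88 against 12.46 and 10.46. In each of these genes the WT lines lay within 0.25 of each other, both KO lines were lower, and KO 2 was lower than KO 1 by 1.78 to 2.00.

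The difference was 9.29-fold for Tagln (log2 -3.22, SE 0.74, limma adjusted p = 0.137), 11.2-fold for Cnn1 (log2 -3.49, SE 0.67, limma adjusted p = 0.109) and 5.68-fold for Myl9 (log2 -2.51, SE 0.75, limma adjusted p = 0.184). None of the 3 passed. With KO 2 as the only KO line the log2 differences were -4.20 for Tagln, -4.37 for Cnn1 and -3.50 for Myl9. With KO 1 as the only KO line they were -2.23, -2.60 and -1.51. Myh11, the smooth muscle heavy chain and the most specific member of the class, stayed dim, at 4.39 and 4.26 in the WT lines and 4.54 and 4.63 in the KO lines.

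Acta2, the smooth muscle actin, depended on the probe. The brightest of its 3 probes, which stands for the gene, read 14.56 and 14.41 in the WT lines and 14.13 and 13.95 in the KO lines, a log2 difference of -0.45. The next probe read 14.98 and 13.11 against 11.74 and 10.27, a difference of -3.05, and the dimmest 10.30 and 9.17 against 7.66 and 6.09, a difference of -2.86. Both of the latter resemble Tagln and Cnn1 in size, and with averaged probes Acta2 differed by log2 -2.12. Actg2, the enteric smooth muscle actin, had 1 probe, at 12.63 and 12.30 in the WT lines and 12.13 and 12.03 in the KO lines. Which actin transcripts each probe detects was not tested.

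**Figure D3:**
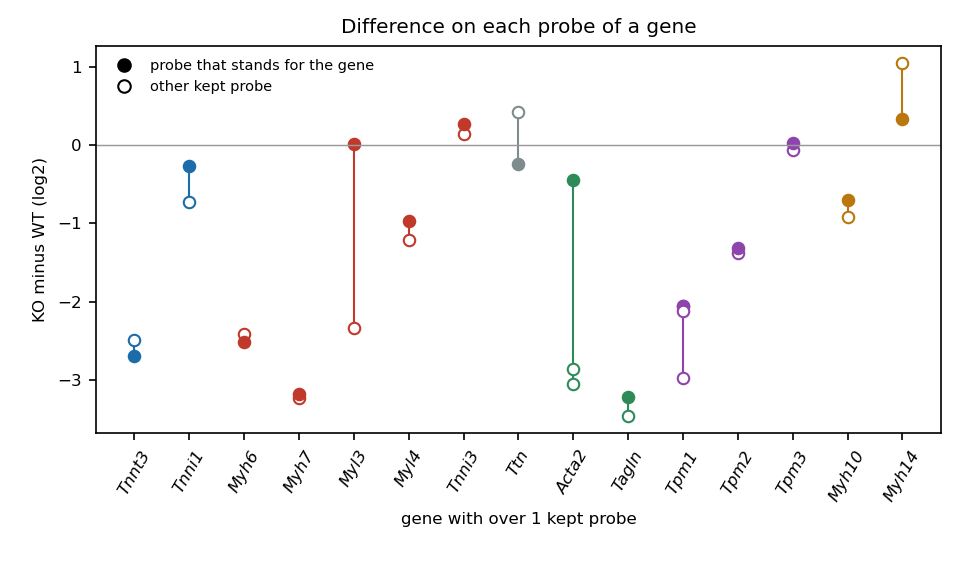
KO minus WT log2 difference (vertical axis) on every kept probe of the 15 contractile genes with more than 1 kept probe; filled circles are the probe that stands for the gene, open circles the others, and colours are blue for skeletal, red for cardiac, grey for shared striated, green for smooth muscle, purple for tropomyosin and brown for non-muscle myosin genes. The probes of 10 genes lie within 0.5 of each other, while those of Myl3 and Acta2 span 2.35 and 2.60.

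Probes agreed for most other genes. Of 15 members with more than 1 kept probe, 12 had the same sign on all of them, 10 had probes within 0.5 of each other, and 2, Acta2 and Myl3, spanned more than 1. Myl3, the ventricular essential light chain, read 7.38 and 7.26 against 7.28 and 7.37 on the probe that stands for it, but 6.80 and 7.88 against 5.89 and 4.12 on the other, a difference of -2.34. When each of the 28688 kept probes was tested on its own, 5 probes of 4 members passed: both of Myh6, 1 of Myh4, 1 of Tnnt3 and 1 of Tpm1 (limma adjusted p between 0.0138 and 0.0425).

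The tropomyosins divided by gene. Tpm1, made in heart, smooth muscle and many other cells, read 15.88 and 15.98 in the WT lines and 14.50 and 13.23 in the KO lines, a 4.18-fold difference (log2 -2.06, limma adjusted p = 0.139). Its 4 probes were all lower in the KO lines, by 2.06 to 2.98 on the log2 scale. The probe with the largest difference was designed on another Tpm1 transcript, NM_001164248, and read 14.28 and 14.37 against 11.36 and 11.34. Its replicates nearly coincided, and it passed in the test of single probes (limma adjusted p = 0.0138).

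Tpm2, another muscle tropomyosin, read 14.08 and 13.82 in the WT lines and 13.02 and 12.25 in the KO lines (limma adjusted p = 0.146). Tpm4, a tropomyosin of stress fibres, read 15.68 and 16.00 against 14.76 and 13.99 (limma adjusted p = 0.131). Tpm3 did not follow: it read 15.85 and 15.99 in the WT lines and 15.96 and 15.95 in the KO lines, a log2 difference of 0.03 (SE 0.13) whose sign turned under 5 of 14 alternatives. Tpm1, Tpm2 and Tpm4 kept their sign under all 14.

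Of the non-muscle myosins, Myh9, the heavy chain of myosin IIA, read 15.87 and 15.79 in the WT lines and 14.88 and 14.67 in the KO lines. Its groups were separated by more than their spread, and the 2.08-fold difference (log2 -1.06, SE 0.14) did not pass (limma adjusted p = 0.0727). Myh10, of myosin IIB, read 12.41 and 12.59 against 11.97 and 11.63 (limma adjusted p = 0.162), and Myh14, of myosin IIC, read 10.96 and 11.27 against 11.23 and 11.67, with overlapping groups. The dimmer probe of Myh14 was higher by 1.05.

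The lines of a genotype differed from each other along these genes. Of the 13 members at least 2-fold lower in both pairs, all 13 were lower in KO 2 than in KO 1 and 10 were lower in WT 2 than in WT 1, and in 11 the KO lines were further apart than the WT lines. The KO lines were more than 1 apart in 7 of them (Tnnt3, Acta1, Myh7, Myl9, Cnn1, Tagln and Tpm1) and the WT lines in 2 (Myh7 and Actc1). Over the 37 members 27 were lower in KO 2 than in KO 1 (73%, against 48.8% of all genes) and 28 lower in WT 2 than in WT 1 (75.7%, against 48.3%). The KO lines were further apart than the WT lines in 23 of the 37 (62.2%), near the 58.9% of all genes. The difference was larger in the pair of mother 875 for 12 of the 13, and Actc1 was the exception.

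**Figure D4:**
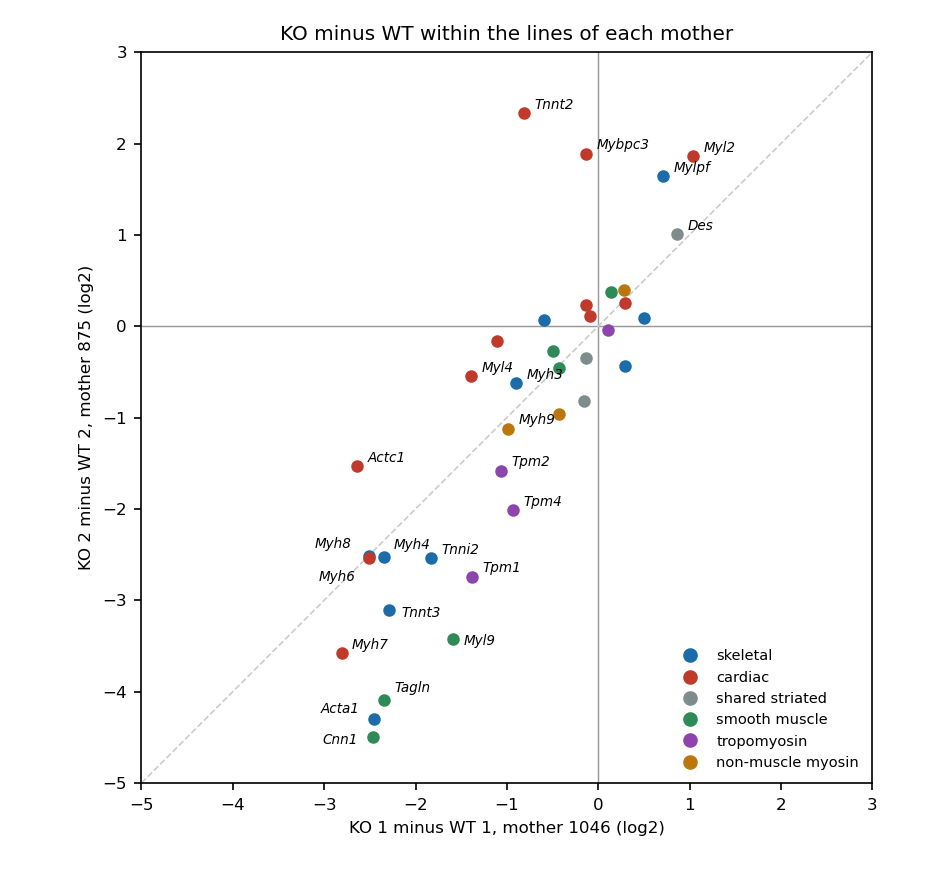
KO minus WT log2 difference in the lines of mother 1046 (horizontal axis) and of mother 875 (vertical axis) for the 37 tested contractile genes, coloured by class; the dashed line marks equal differences. Myh4, Myh6 and Myh8 lie near the dashed line between -2.35 and -2.54, whereas Tagln, Cnn1, Acta1 and Myl9 lie below it, and Tnnt2 and Mybpc3 reach 2.33 and 1.89 in mother 875.

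The difference between the mothers was a contrast that the choice of members did not use. In a model with genotype and mother, limma called 0 of the 37 members and 0% of all genes between the lines of mother 875 and those of mother 1046 (unadjusted p under 0.05 in 7 members and in 7.32% of all genes, with no member below an adjusted p of 0.678). The model has few residual degrees of freedom, so 0 calls do not show that the mothers' lines were alike. The median over the members was -0.22, and 30 of 37 were lower in the lines of mother 875. Over all genes the median was -0.00, and 10854 of 21639 were lower. Among the members the size ranged from -2.30 for Myl2 to 0.72 for Mybpc3.

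Further genes of contraction were counted from lists outside the 40, on the same genotype fit. Its shares over all genes, to set beside each count below, were 1.68% called lower and 0.176% higher. With no adjustment, 2753 of all 21639 genes were lower and 2257 higher (limma p under 0.05). Of 31 tested genes among 49 further sarcomere and muscle membrane genes, 2 fell, 1 rose and 28 did not pass, with a median of -0.17. Cacna1s, the calcium channel of skeletal muscle that triggers contraction, fell 6.08-fold from 7.56 and 7.79 to 5.19 and 4.95 (limma adjusted p = 0.0264; log2 -1.37 and -1.21 under the normexp settings against -2.60). Cryab, a small heat shock protein of the Z-disc, fell 5.93-fold (limma adjusted p = 0.0336). The call higher, of the slow-muscle light chain Myl6b (at least 1.97-fold, limma adjusted p = 0.0499), rests on a probe that passed the filter through the KO lines alone. It differed by log2 0.06 under normexp with the 75th percentile, and with genes above background on all 4 arrays 0 further genes were called higher. Trim54, a sarcomeric ubiquitin ligase, read 10.90 and 11.48 against 8.74 and 8.85 and lay next to the threshold without passing (limma adjusted p = 0.0503).

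Of 21 tested genes among 24 further smooth muscle genes, 1 fell, 0 rose and 20 did not pass (limma; 13 lower and 1 higher unadjusted), with a median of -0.70. Fhl1, a LIM protein of muscle, fell 2.89-fold from 14.80 and 14.54 to 13.15 and 13.13 (limma adjusted p = 0.0482). Cald1 (caldesmon), Pdlim3 and Csrp1, which bind or organise actin filaments, had log2 differences of -1.75, -2.70 and -1.66 with limma adjusted p of 0.0542, 0.0613 and 0.0699. All 25 listed genes of non-muscle actomyosin were tested and none passed (limma; 7 lower and 0 higher unadjusted), with a median of -0.28. Actn1, Vcl and Rock2, which encode an actin cross-linker, an adhesion protein and a kinase that activates myosin, had log2 differences of -0.76, -1.17 and -0.96.

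Among regulators, 21 of 25 listed genes were tested, 2 fell, 0 rose and 19 did not pass (limma; 8 lower and 1 higher unadjusted), with a median of -0.19. Myocd, the SRF coactivator of smooth and cardiac muscle, fell at least 1.79-fold, from 4.26 and 4.00 to values not well above background (limma adjusted p = 0.0221), and the cardiac homeobox gene Nkx2-5 fell at least 22.2-fold (limma adjusted p = 0.0258). Both passed the filter through the WT lines alone, where they were brighter, so the count of 2 rests on such genes. Myod1 and Pax3, which are in the unadjusted count of 8, also passed the filter through the WT lines alone. "At least" takes the dim group at the higher of its own signal and the lowest signal well above background on each array. Under the normexp settings the log2 differences were -0.39 and -0.20 for Myocd and -1.98 and -1.82 for Nkx2-5, against -2.87 and -4.57. The p-values rest on the spread of background signal in the KO lines. Tead3, a partner of YAP, and Myod1, the skeletal muscle determination factor, did not pass; Tead3 had a log2 difference of -1.54 (-0.78 and -0.61 under the normexp settings), and Myod1 was at least 1.60-fold lower, its KO values not well above background (log2 -0.27 and -0.09 under the normexp settings). Srf itself, not among the 4 smallest p and chosen after its values were seen, read 12.46 and 12.55 in the WT lines and 12.01 and 11.73 in the KO lines, a difference of -0.63 that did not pass (limma adjusted p = 0.152).

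Of 17 genes that respond to SRF or carry TGF-beta signals, all tested, 2 fell, 0 rose and 15 did not pass (limma; 5 lower and 0 higher unadjusted), with a median of -0.47. Fhl2, a LIM protein and SRF target, fell 10.9-fold from 12.41 and 12.28 to 8.77 and 9.03 (limma adjusted p = 0.0179). Tgfbr2, the type II TGF-beta receptor, fell 6.77-fold from 10.50 and 10.27 to 7.53 and 7.72 (limma adjusted p = 0.0235). Thbs1 (thrombospondin) and the ligand Tgfb2 had log2 differences of -3.20 and -3.56 without passing (limma adjusted p = 0.0878 and 0.101). The 7 falls and 1 rise over these 5 lists came to 0 with the mother as a block and without WT 1, WT 2 or KO 2, and to 16 falls and 0 rises without KO 1.

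Markers of cells that could carry contractile transcripts were read beside these results. Counts of called markers stand beside the 1.68% called lower and 0.176% called higher over all genes. Unadjusted counts stand beside 2753 lower and 2257 higher of all 21639 genes. All 16 fibroblast or feeder markers were tested, and their summed signal was 42984 in WT 1, 14832 in WT 2, 20726 in KO 1 and 28232 in KO 2, so the KO lines lay between the WT lines. S100a4 gave 41% to 74.9% of each sum, and without it, in a count added after seeing the data, the sums were 19305 and 8748 in the WT lines and 7070 and 7084 in the KO lines, both KO lines below both WT lines. Of the 16 markers 2, Mmp2 and Fbn1, fell. Their median difference was -1.19 between WT 1 and KO 1 and -0.03 between WT 2 and KO 2, where the smooth muscle class had -1.05 and -1.94. Of 6 smooth muscle cell markers 5 were tested, and 1 of them (Myocd), which passed the filter through the WT lines alone, fell. The summed signal of the 5 was 3132 and 2621 in the WT lines and 1823 and 1661 in the KO lines. Without the brightest, Smtn, the sums were 1519 and 844 against 785 and 622. The part of these markers in the smooth muscle results was not tested.

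Of 9 cardiomyocyte markers 7 were tested and none passed (limma; 3 lower and 0 higher unadjusted), with sums of 1188 and 894 in the WT lines and 1115 and 729 in the KO lines. Without the brightest, Nppb, the sums were 713 and 566 against 445 and 340, both KO lines below both WT lines. Pln and Myoz2 were not well above background on any array, and Myom1 and Csrp3 on neither KO array. Myom1 and Csrp3 therefore entered the unadjusted count of 3 through the WT lines alone. Of 9 skeletal muscle markers 6 were tested, 1 of them (Cacna1s) fell, and the sums were 865 and 860 against 794 and 927, or 433 and 521 against 322 and 406 without the brightest, Ryr1. Myf5 and Ckm were not well above background on any array, and Myog was so on KO 2 alone. The sums of the 10 tested ESC markers were 88065 and 96806 in the WT lines and 155048 and 231752 in the KO lines. Without the brightest, Zfp42, they were 77240 and 61434 against 139046 and 133890. None of the 10 passed (limma, with 0 lower and 5 higher unadjusted) and all 10 differences were positive. The part of these shifts in the contractile results was not tested. Myocd, Cacna1s, Myom1, Csrp3 and others stand in both a marker list and another list.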

How the data were processed

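The values used are spot intensity values that the authors deposited, read by version 10.7.3.1 of Agilent's Feature Extraction software, per the file headers; the processed intensity is background-subtracted and detrended within an array and not scaled between arrays, and the median spot and background intensity are raw. The deposited series table holds log2 values; its scale was read from the values, since each column correlated with log2 processed signal at 0.9999 or above and the 4 medians lay at 6.57 to 6.58, so it is not centred per gene, while its normalization was not given in the sources used here. Per the labels, the study itself used GeneSpring GX11.

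Control spots and outlier spots were left out, spots of a probe averaged, log2 values scaled to the 75th percentile and re-centred on its mean. Of 41174 gene probes 26690 matched 1 RefSeq symbol (GRCm38.p6), and 233 with an outlier flag on all spots of an array, 1 of them for a contractile gene (Myh3), were left out. A gene was kept through its brightest probe well above background on both arrays of a group. Groups follow the titles. Genotype was fitted with limma 3.58.1 in R 4.3.3 (lmFit, eBayes), adjusted over 21639 genes at 0.05. The replicate number marks a shared mother, per the labels, so a fit with the mother as a block is given; the mothers' differences correlated at 0.19 across genes in the 2 genotypes. The lines are separate derivations. The fit and motif search were tested on simulated data. Members, lists and tests were chosen with earlier results of these data known. Named genes are all tested members, of each further list up to 4 tested genes with the smallest p (1 is not reported here), and called markers. Scaling, background correction, filter, probe choice, prior, block and left-out lines were varied; testing each probe on its own was added after seeing the data.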

Additional observations from a re-analysis of the deposited data

Results flagged for a closer look

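In 7 of the 37 tested contractile genes the KO line lay above its WT counterpart in the pair of 1 mother and below it in the other. The difference between the pairs was not tested, as each mother gives 1 pair. The widest gaps were in 2 cardiac genes, Tnnt2 (log2 -0.81 in mother 1046 and 2.33 in mother 875) and Mybpc3 (-0.13 and 1.89). For Tnnt2 this follows the low value of WT 2, and for Mybpc3 the high value of KO 2. The other 5 were closer to 0: Tnni1 had -0.59 and 0.07, Tnnc2 0.29 and -0.43, Myl7 -0.13 and 0.23, Myl3 -0.09 and 0.11, and Tpm3 0.11 and -0.04, each in mother 1046 and mother 875. Over all 21639 genes, 5306 had opposite signs in the pairs.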

How the results depend on the processing

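With the mother as a replicate block limma called 0 members lower, 0 of all genes in either direction, and 0 lower and 0 higher in the 5 further lists, where the fit without it called 2 members, 364 and 38 genes, and 7 and 1. With normexp and the 75th percentile, 5 members and 13 further genes were called lower and 67 of all genes higher; with an intensity trend and robust prior the counts were 4, 13 and 80, and further genes called higher 0. With genes above background on all 4 arrays, 62 of all genes were lower and 1 higher, and 3 further genes lower and 0 higher. All genes called higher numbered 58 after centring on medians and 9 with no filter, and further genes called higher 0 with no filter and under normexp with quantiles. When each kept probe was tested on its own, an alternative added after seeing the data, 4 members were called lower. Leaving out a line moved the counts from 0 to 785 (all genes lower), 0 to 72 (higher), 0 to 8 (members lower), 0 to 16 (further genes lower) and 0 to 0 (further genes higher); each high count is without KO 1, and without WT 1, WT 2 or KO 2 the count was 0 throughout, where a lone line was taken to vary like the other group. Members at least 2-fold lower in both pairs stayed within 1.5 times of 13, while those higher numbered 2 after centring on medians, and 0 under both normexp settings and with genes above background on all 4 arrays. The skeletal median was -1.29 after centring on medians, -0.87 with normexp and the 75th percentile, -0.71 with normexp and quantiles, -0.76 with no filter, and -1.66 to -1.28 without a line. The shared striated median was -0.06 after centring on medians, 0.09 with averaged probes, and -0.65 to 0.17 without a line, and the smooth muscle median -2.31 with averaged probes. The median of all members was -0.45 after centring on medians, -0.44 with normexp and the 75th percentile, and -0.87 to -0.37 without a line. With Tpm1 and Tpm2 placed in the smooth muscle class and Tpm3 and Tpm4 in the non-muscle class, the medians were -1.69 and -0.70. Of the 37 members 29 kept their sign under all alternatives and 8 turned under at least 1. Members called between the mothers numbered 0 in limma under all 4 alternatives, including the fit of the mother alone, with no replicate block and no genotype term. The part of the normexp offset in the changes under normexp, and the cause of the other changes, were not tested. Values near the floor, log2 3.24 to 3.59, limit Myh1, Myh2, Myl1, Myl2 and the WT values of Myl6b. They also limit the KO values of Myocd, Nkx2-5, Myod1, Pax3, Myom1 and Csrp3.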
